A study of Rattus norvegicus with 14 samples.

Results

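The aortas of 5 rats with chronic uremia were examined for how much gene expression differed from rat to rat and for which genes varied together. All 5 were male Dark Agouti rats whose kidney mass had been cut by 5/6 nephrectomy. They lived 14 weeks with uremia, and in the last 6 of these weeks, after 8 weeks without it, they received 30 ng alfacalcidol, a synthetic vitamin D prodrug, 3 times a week. The notes of the series name a phosphate-rich diet as needed for calcification and do not say which rats ate it. The 5 libraries, of rats 9, 17, 20, 27 and 28, are 5 of the 14 in the series, each from the polyadenylated RNA of 1 aorta taken between the renal arteries and the heart. Of 17019 genes in the deposited table, the 7209 with a mean of at least 5 FPKM (fragments per kilobase of transcript with the size of the library divided out) over these 5 libraries were described, and 12897 genes were above 0 in at least 1 of them. At that bound, Rhobtb1 (5.00 FPKM) and Cog6 (5.01 FPKM) lay just inside, and Aass (4.998 FPKM) and Cpne3 (4.996 FPKM) just outside.

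Medial calcification is a common lesion of arteries in kidney failure. Phosphate and calcium are laid down among the elastic lamellae of the vessel wall, and smooth muscle cells there lose contractile proteins and take up genes of bone and cartilage cells. Matrix Gla protein and pyrophosphate restrain mineral growth, whereas collagen and elastin are surfaces on which it can start. An aorta also carries endothelium, resident macrophages, nerve fibres and a coat of adventitia and perivascular fat, so a library of the whole vessel sums several cell types.

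The deposited values allowed whole reads to be recovered for 6926 of the 7209 genes, to within 0.1 read. The reads recovered, over all genes that gave any, numbered 1711197 (rat 17) to 4686783 (rat 27) per library, with 98 to 292 reads for the median gene. These totals are lower than the depth, since no reads were recovered for some of the most abundant genes, Mgp, Tagln, Acta2, Fn1 and Eln among them. Rat 27 had 2 index sequences in its label where the other rats had 1. Between any pair of libraries the log2 values of the 7209 genes had a Pearson correlation across genes of 0.928 to 0.976, a description over genes that share libraries. The 4 lowest of these 10 correlations were the 4 pairs with rat 27, at 0.928 to 0.948. The genes that were 2-fold apart or more numbered 59 between rats 9 and 28 and 553 between rats 9 and 27. They numbered 300 between rats 20 and 27 and 326 between rats 17 and 20, a pair with a correlation of 0.950. Rat 27 thus had the lowest correlations, with some pairs of rat 17 nearly as distant, and the main counts below are also given without rat 27.

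Mgp, Spp1, Fn1, Sost and Ibsp are the 5 marker genes taken for these aortas, and each was above 5 FPKM in all 5 libraries. Their levels are no check of the calcified label, as no measure of mineral in the single rats was used here. Values of single genes below are FPKM in rats 9, 17, 20, 27 and 28, in that order, and every SD without a unit is the SD over the 5 rats of log2(FPKM + 1), on which 1 unit is about a doubling.

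Expression of the median gene had an SD of 0.24 between rats. The 10th and 90th percentiles of the SD were 0.12 and 0.48, and the median gene was 1.55 times as high in its highest rat as in its lowest. An SD of 0.5 or more was found in 625 genes, which is 8.67% of the 7209, and an SD of 1 or more in 76 genes, or 1.05%. Without rat 27 the number with an SD of 0.5 or more was 400 (5.59% of the genes), of which 331 were among the 625, and the number with an SD of 1 or more was 33. Without rat 28, 116 genes had an SD of 1 or more.

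Chance in the sampling of reads gives an SD of its own, and from the recovered reads this part had a median of 0.12. The observed SD was at least 2 times the counting SD in 3393 genes (49.0% of those with reads) and was smaller than it in 826 genes (11.9%). The median SD was 0.26 among the 1917 genes of 5 to 10 FPKM, where counting alone gave 0.17. It was 0.35 among the 95 genes of 500 FPKM or more, where counting alone gave 0.024 in the 59 of them with reads, and 18.9% of these abundant genes had an SD of 0.5 or more.

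**Figure D1:**
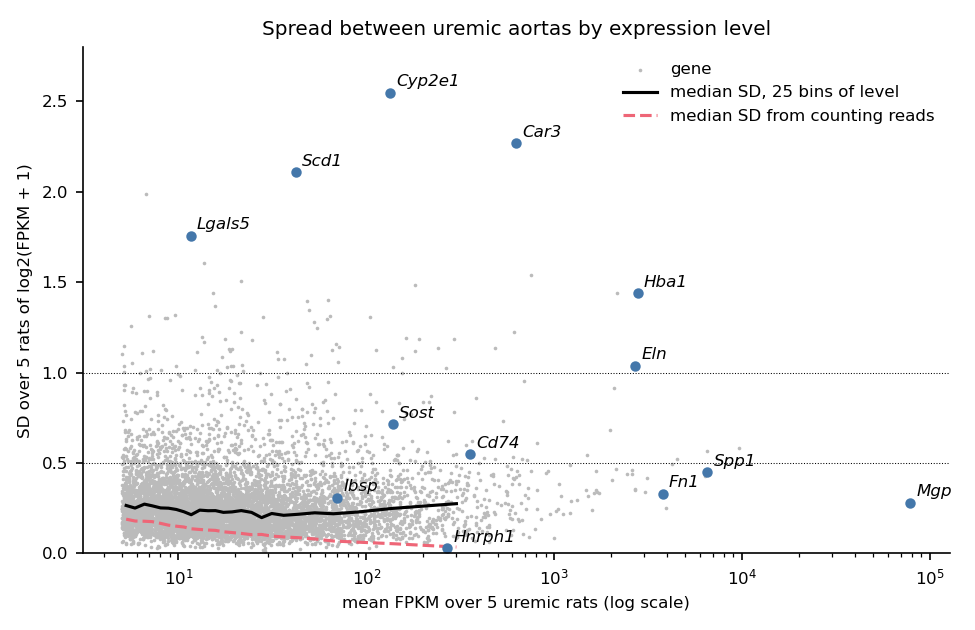
Each grey point is 1 of 7209 genes, with its mean FPKM over 5 uremic rats on a log axis and the SD of log2(FPKM + 1) between the rats; the solid line is the median SD in 25 bins of level, the dashed line the median SD from counting reads, and dotted lines mark SDs of 0.5 and 1. Cyp2e1 has the largest SD, 2.55, while Hnrph1 is at 0.03.

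Most of the variation lay in rats 27 and 17. The first principal component of the centred log2 values held 45.6% of the variance and set rat 27 (score 32.9) against the others, whose scores ran from -14.2 (rat 9) to 0.18 (rat 20). The second component held 29.2% and had rat 17 at its end (25.5). The third, with 14.3%, ran between rat 9 (15.0) and rat 20 (-13.5), and the fourth, with 10.97%, had rat 28 at its end (15.3). Without rat 27 the first component held 51.5% of the variance and its largest score was that of rat 17.

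In 576 genes, or 7.99% of the total, 1 rat was apart from the other 4 by Dixon's gap criterion, which chance alone meets in about 1 gene in 20. Rat 27 was the one apart in 292 of them, 219 on the high side and 73 on the low side. Rat 17 was apart in 144, of which 125 were on the high side. Rats 9, 20 and 28 were apart on the high side in 52, 24 and 25 genes. Among all 7209 genes the highest rat was rat 9 in 23.7%, rat 17 in 24.6%, rat 20 in 15.4%, rat 27 in 21.1% and rat 28 in 15.1%. The lowest was rat 9 in 19.2%, rat 17 in 20.7%, rat 20 in 13.9%, rat 27 in 33.5% and rat 28 in 12.8%. The counts for gene groups below are read against these shares.

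**Figure D2:**
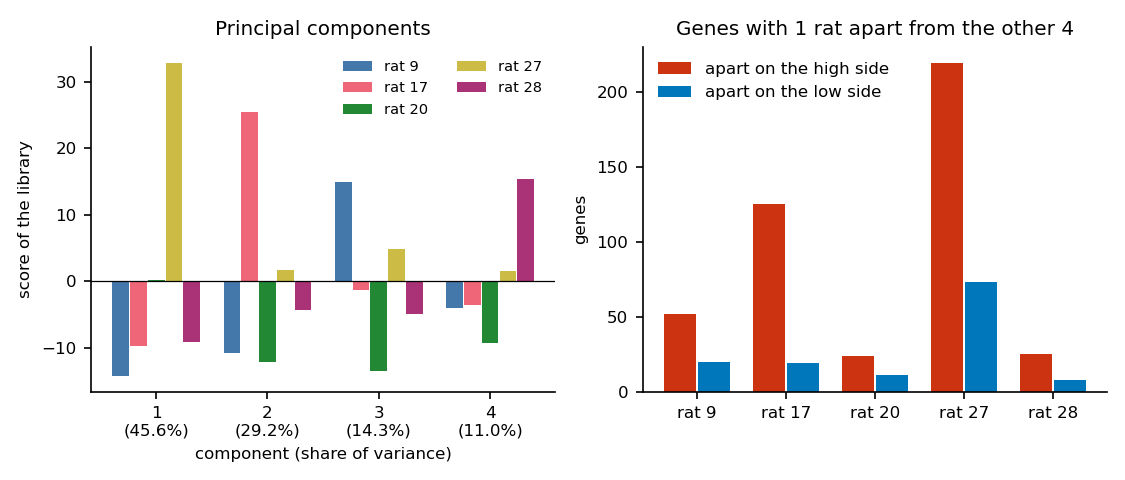
Left, scores of the 5 libraries on 4 principal components, with the share of variance of each below it; right, the number of genes in which a rat stands apart from the other 4, on the high side (red) or the low side (blue). Rat 27 has a score of 32.9 on the first component and 219 genes apart on the high side.

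To see which genes varied together, 38 lists of genes for pathways and cell types were followed. Of their 653 genes 398 were among the 7209, and 30 lists had at least 5 such members. For each list the members' log2 values, each less its own mean over the 5 rats, were averaged within a rat, and this average is called the list mean. How closely members moved together is given as the SD of the list mean over the root mean square of the members' SDs. That ratio is 1 when all members move as one. Members that move in opposite directions cancel in the list mean, so a low ratio does not show that they vary independently.

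**Figure D3:**
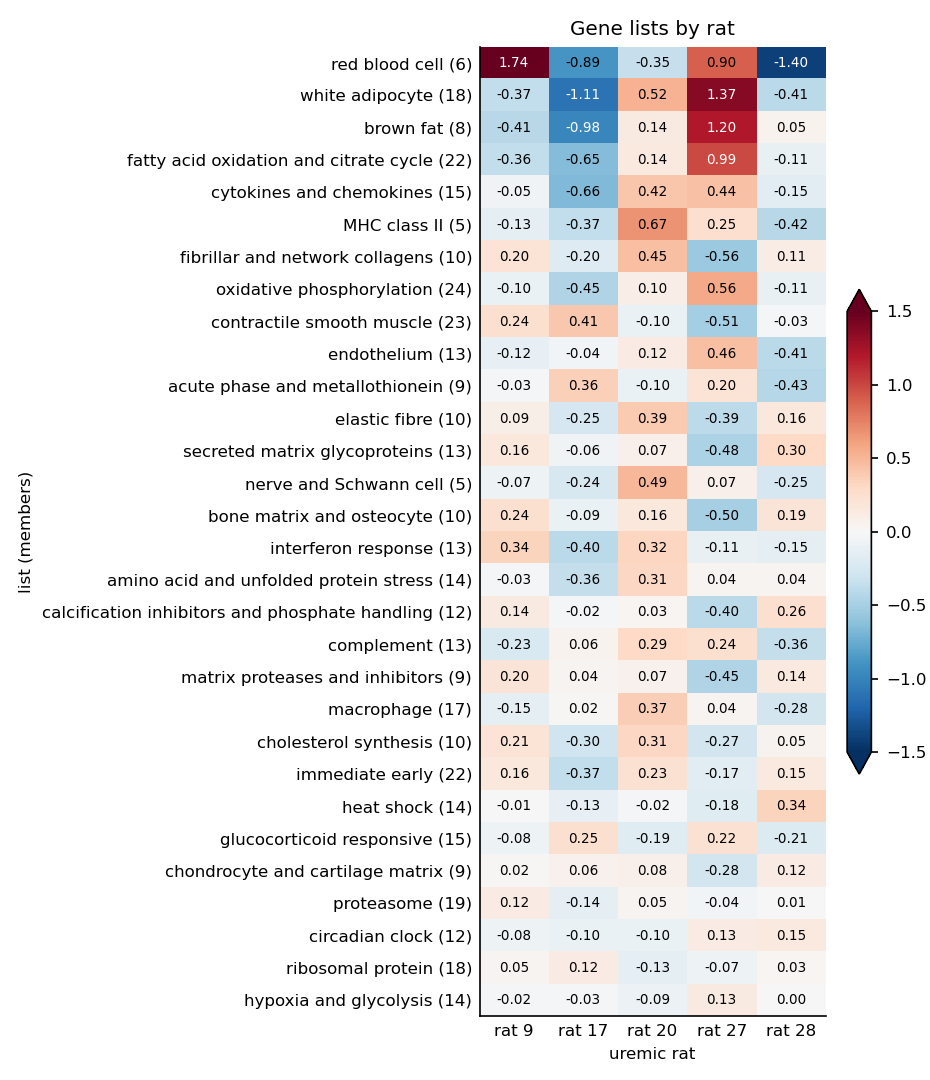
Rows are the 30 gene lists with at least 5 members (number in brackets), columns the 5 uremic rats, and each cell gives the list mean on the log2 scale relative to the mean of the 5 rats, red above and blue below it. The red blood cell list runs from 1.74 in rat 9 to -1.40 in rat 28, the white adipocyte list from 1.37 in rat 27 to -1.11 in rat 17, and the ribosomal protein list stays between -0.13 and 0.12.

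Of the genes tied to mineral, Mgp, the inhibitor of calcification that was also the most abundant transcript, stood at 85442, 76487, 74900.4, 58041 and 98527 FPKM, between 13.3% and 19.5% of all FPKM of a library. It was highest in rat 28 and lowest in rat 27, with a mean of 78679.5 ± 14872 FPKM (SD, n = 5) and an SD of 0.28. Spp1, which encodes the phosphoprotein osteopontin, had 8384, 7081, 5498, 3919 and 7881 FPKM (SD 0.45) and was again lowest in rat 27. Fn1, the gene of the adhesive matrix protein fibronectin at chr9:78674438-78743407 (rn5), had 3596, 5006, 3021, 2944 and 4323 FPKM, highest in rat 17.

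Sost varied more than the other markers. This gene encodes sclerostin, an inhibitor of Wnt signalling made by osteocytes, and it had 185, 88.2, 148, 64.5 and 207 FPKM, an SD of 0.71. Rats 9, 20 and 28 lay above rats 17 and 27. Ibsp, which encodes bone sialoprotein, was at 78.2, 79.7, 49.2, 61.3 and 80.6 FPKM (SD 0.31, chr14:6789268-6802232 in rn5), and here rat 20 was lowest instead of rat 27. The 5 markers thus had 5 different orders of the rats.

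**Figure D4:**
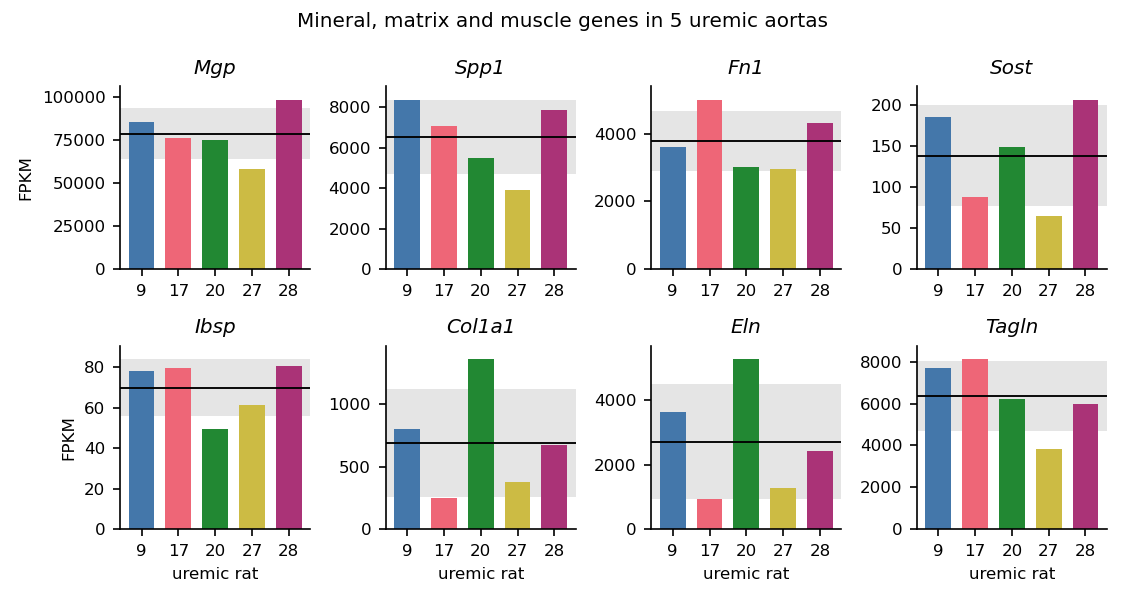
Bars give FPKM of 8 genes in uremic rats 9, 17, 20, 27 and 28, each on its own linear axis from 0; the line is the mean and the grey band 1 SD on either side (n = 5). Mgp, Spp1, Sost and Tagln have rat 27 lowest, whereas Col1a1 and Eln have rat 17 lowest and rat 20 highest.

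The 3 genes nearest to each marker, with the same order of rats and the smallest distance between centred log2 values, were found by a rule. For Sost these were Dok5 (14.2, 5.88, 12.0, 5.19 and 17.1 FPKM), Fgf18, a fibroblast growth factor of bone and cartilage (8.59, 3.64, 7.07, 2.94 and 9.17 FPKM), and Loxl3, a lysyl oxidase that crosslinks matrix (38.4, 20.9, 31.8, 15.7 and 47.8 FPKM). Fgf18 had a mean of only 12.2 reads and a counting SD of 0.37 beside its SD of 0.63. Its exact order of rats is thus uncertain. The nearest to Mgp were Sync, Plekhg2 and Slc7a1. For Spp1 they were Ncs1, P2rx1, an ATP-gated channel of smooth muscle, and Rab4b, and for Fn1 they were Pkd2, Cnnm2 and Plekho1. Among all 7209 genes 127 shared the order of Sost, 150 that of Spp1, 130 that of Fn1, 81 that of Mgp and 35 that of Ibsp.

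Of 17 genes of the bone matrix and osteocyte list in the table, 10 were members. Those with a mean below 5 FPKM included Bglap (0.19 FPKM), Sp7 (0.28 FPKM) and Phex (1.07 FPKM). Among the 10 members 6 had an SD of 0.5 or more and 6 were lowest in rat 27. Without rat 27 the list mean ranged over 0.34 on the log2 scale, against 0.75 with it. Members did not move closely together, with a ratio of 0.49, where 10 independent genes would give 0.32. Alpl, the alkaline phosphatase that splits pyrophosphate, had 30.7, 9.73, 35.4, 13.0 and 17.5 FPKM, 3.64-fold higher in rat 20 than in rat 17. Mepe, a phosphoprotein of the osteocyte matrix, ran the other way, with 12.6, 18.3, 5.92, 5.51 and 13.3 FPKM and its highest value in rat 17. Dmp1, another mineral-binding phosphoprotein, was at 532, 635, 366, 309 and 521 FPKM, also highest in rat 17. Runx2, the transcription factor of osteoblasts, was between 2.79 FPKM in rat 27 and 7.94 FPKM in rat 28.

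The list of calcification inhibitors and phosphate handling had 12 members, 8 of them lowest in rat 27 and 0 highest there, and 1 with an SD of 0.5 or more. Without rat 27 the list mean ranged over 0.28 on the log2 scale, against 0.66 with it. The member with that SD was Ankh, the transporter that supplies pyrophosphate or its precursor ATP to the outside of cells, at 131, 92.5, 125, 70.5 and 206 FPKM (SD 0.57). Enpp1, which makes pyrophosphate from ATP, had 21.0, 15.8, 21.0, 12.7 and 28.9 FPKM, and was likewise highest in rat 28 and lowest in rat 27. Tnfrsf11b, the gene of osteoprotegerin, was at 164, 219.9, 134, 143 and 236 FPKM. It had the same order of rats as Ibsp and was second nearest to it, after the ribosomal protein gene Rps2 and before Bdnf. Only 4 genes other than Ibsp had that order and an SD of 0.3 or more, Tnfrsf11b among them.

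Cartilage genes did not move in a common direction: the 9 members had a ratio of 0.31 against 0.33 for independent genes. Acan, the core protein of the proteoglycan aggrecan, had 19.5, 10.8, 10.7, 3.94 and 21.8 FPKM (SD 0.88) with rat 27 lowest. Prg4, which encodes lubricin, had 46.0, 185, 49.4, 82.1 and 74.5 FPKM (SD 0.79) with rat 17 highest. Frzb, a secreted Wnt antagonist, hardly varied, at 438, 439, 439, 395 and 498 FPKM (SD 0.12).

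Matrix structure genes were high in rat 20 and low in rats 17 and 27. Eln, which encodes elastin, had 3641, 918, 5263, 1287 and 2411 FPKM, an SD of 1.04, and was 5.73-fold higher in rat 20 than in rat 17. Col1a1, a chain of collagen I, followed the same extremes with 799, 250.1, 1360.4, 375 and 675 FPKM (SD 0.95). Col3a1, the chain of collagen III, had 887, 521, 1376, 489.6 and 799.9 FPKM, lowest in rat 27. Of the 10 collagens 5 were highest in rat 20 and 8 lowest in rat 27, and of the 10 elastic fibre genes 5 were highest in rat 20 and 6 lowest in rat 27. The collagen list mean ranged over 0.65 on the log2 scale without rat 27, against 1.01 with it. Col1a2 of the collagen list and Mfap4 of the elastic fibre list were listed at 0 in all 5 rats. Such zeros may be failed estimates and do not show absence. Scaled to the same total FPKM, the elastic fibre list mean was lowest in rat 17 instead of rat 27. Not every elastic fibre gene followed Eln: Fbln5, a fibulin that binds elastin to cells, had 481, 394, 492, 420.5 and 597 FPKM (SD 0.23).

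Other secreted matrix glycoproteins were lowest in rat 27 in 9 of 13 members and highest there in 0, with a list mean range of 0.77 on the log2 scale that was 0.35 without rat 27. Postn, which encodes periostin, an adhesion protein of fibroblasts, had 1061, 693, 924, 571 and 802 FPKM. Igfbp7, an IGF-binding protein of the vessel wall, was close in 4 rats and lower in rat 27, at 3717, 3372, 3406, 1823 and 3324 FPKM. Ctgf, a target of mechanical and TGF-beta signals, had 2593, 3711, 2023, 1711 and 2958 FPKM (SD 0.44), with rat 17 highest.

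Contractile genes shared their extremes. All 23 members of the list had their highest value in rat 17 (14 genes) or rat 9 (9 genes), and 19 had their lowest in rat 27. Their ratio was 0.80, where 23 independent genes would give 0.21, and the list mean was 1.88-fold higher in rat 17 than in rat 27. Without rat 27 it ranged over 0.51 on the log2 scale, against 0.91 with it. The median SD was 0.42 in the list, against 0.24 over all 7209 genes, and 3 of 23 members had an SD of 0.5 or more, against 8.67% of all genes. The same rats were at opposite ends of the white adipocyte list, with 18 of 21 listed genes at 5 FPKM or more, Pnpla2 listed at 0, and a summed FPKM of 2001 in rat 17 and 11768 in rat 27; its part in the contractile values was not tested. In an extract of a whole vessel, fewer cells of a type and less RNA per cell cannot be told apart.

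Tagln, which encodes the actin-binding protein SM22, had 7696, 8117, 6202, 3829 and 5999 FPKM (SD 0.43). Acta2, smooth muscle actin, was at 4304, 6675, 4114, 2579.9 and 3609.5 FPKM, and Myh11, the smooth muscle myosin heavy chain, at 1740.05, 2446, 1446, 1342 and 1648 FPKM. Each of these 3 genes was highest in rat 17 and lowest in rat 27. Actg2, an actin of visceral smooth muscle, varied most in the list with 292, 434, 144, 102 and 131 FPKM (SD 0.87). Kcnmb1, a subunit of the calcium-activated potassium channel, was even in 4 rats and low in rat 27, at 107, 88.0, 91.5, 37.3 and 99.9 FPKM. Nearest to Myh11 in pattern were B3gnt2, Tln1, which encodes the adhesion protein talin, and Lrrc32. Myocd, the coactivator that drives this programme, had 19.4, 34.8, 13.9, 17.0 and 25.3 FPKM, with rat 17 highest and rat 20 lowest.

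Among the 30 lists, the range of the list mean was widest for red blood cells, followed by white adipocytes, brown fat and fatty acid oxidation. Without rat 27 fatty acid oxidation (0.80) came after MHC class II (1.09), cytokines and chemokines. In the white adipocyte list 16 of 18 members were highest in rat 27, 13 were lowest in rat 17, and 17 had an SD of 0.5 or more. The list mean was 5.56-fold higher in rat 27 than in rat 17, and without rat 27 it still ranged over 1.63 on the log2 scale, from rat 20 to rat 17. Summed FPKM of the listed genes was 3354 in rat 9, 2001 in rat 17, 5154 in rat 20, 11768 in rat 27 and 2780.3 in rat 28.

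Fabp4, the fatty acid carrier of adipocytes, had 1526, 845, 1948, 4716 and 1341 FPKM. Adipoq, the gene of the fat hormone adiponectin, was at 89.3, 51.7, 185, 416 and 74.5 FPKM, and Plin1, which coats fat droplets, at 171, 67.8, 203, 617 and 149.9 FPKM. All 3 had rat 27 highest, rat 20 next and rat 17 lowest. Car3, carbonic anhydrase 3 of fat and muscle at chr2:107901281-107909241, spread more widely with 389.8, 25.2, 729, 1734 and 266 FPKM (SD 2.27). Lpl, lipoprotein lipase, was close together in 4 rats and high in the remaining one, at 72.8, 108, 115, 574 and 89.8 FPKM. Brown fat genes followed, with 7 of 8 members highest in rat 27 and 7 of 8 lowest in rat 17; the list mean ranged over 1.12 on the log2 scale without rat 27, against 2.18 with it. Ucp1, the uncoupling protein that marks brown fat, had 9.18, 5.73, 23.2, 40.9 and 16.5 FPKM (SD 1.03).

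Enzymes of fatty acid oxidation and the citrate cycle were highest in rat 27 in 22 of 22 members and lowest in rat 17 in 18. Their ratio was 0.89, where 22 independent genes would give 0.21. Acadl, which starts the oxidation of long fatty acids, had 145, 113, 206, 323 and 156 FPKM, and Etfb, which takes up its electrons, 104, 65.4, 138, 321 and 115 FPKM. Pdk4, the kinase that turns off pyruvate dehydrogenase, had 17.5, 30.6, 19.3, 165 and 30.8 FPKM (SD 1.28), with rat 27 far above the rest. The respiratory chain moved the same way by less: 21 of 24 subunit genes were highest in rat 27 and 20 lowest in rat 17, with a list mean 2.02-fold higher in rat 27 than in rat 17. Without rat 27 the range of the list mean on the log2 scale was 0.80 for fatty acid oxidation, against 1.64 with it, and 0.55 for the respiratory chain, against 1.01. Atp5b, the beta subunit of ATP synthase, had 266, 223, 389, 668 and 284 FPKM.

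The gene with the largest spread of all was Cyp2e1, a cytochrome P450 of liver and fat at chr1:220406341-220416726. It had 20.7, 72.2, 4.05, 551 and 17.8 FPKM (SD 2.55), so rat 27 was 7.64 times as high as rat 17, the next rat, and 136 times as high as rat 20. Unlike the adipocyte genes it was second highest, not lowest, in rat 17. Of the liver list only 4 of 15 genes were members, Cyp2e1 itself among them, with 3 highest in rat 27 and 1 in rat 20. In rat 27 the genes of that list summed to 591 FPKM, of which Cyp2e1 made up 551 FPKM. Apob, Ttr and Fga were listed at 0 in all 5 rats, which may be a failed estimate and does not show absence. A source of Cyp2e1 was not tested. Adck3, of coenzyme Q synthesis, had 20.2, 21.9, 28.2, 215 and 27.0 FPKM, and Acacb, an acetyl-CoA carboxylase that limits fatty acid oxidation, had 4.34, 7.88, 5.32, 54.2 and 6.70 FPKM. In both, the 4 other rats were close together and rat 27 at least 6.88 times as high as any of them. Aox1, aldehyde oxidase, had 17.0, 51.8, 16.6, 145 and 18.2 FPKM, with the same highest, second and lowest rat as Cyp2e1.

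Scd1 and Fasn were the 2 members of the white adipocyte list that were highest in rat 20 instead of rat 27. Scd1, the desaturase that makes oleic acid (chr1:271603047-271615648), had 10.7, 2.44, 171, 7.69 and 19.7 FPKM (SD 2.11), and rat 20 was 8.67 times as high as the next rat. Fasn, fatty acid synthase, had 7.95, 5.88, 42.3, 12.2 and 11.9 FPKM, 3.48 times as high in rat 20 as in the next. In rat 27, where the other adipocyte genes were highest, Scd1 was lower than in rats 9 and 28. Dgat2, which completes triglycerides, had 24.5, 16.4, 61.4, 181 and 37.0 FPKM and was instead highest in rat 27. Cholesterol synthesis genes were highest in rat 20 in 6 of 10 members, by small amounts, with a list mean between -0.30 and 0.31.

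Red blood cell genes had the widest list mean of all, 8.83-fold higher in rat 9 than in rat 28. All 6 members were highest in rat 9 and 5 were lowest in rat 28, with a ratio of 0.96 against 0.41 for independent genes. Hba1, an alpha globin gene at chr10:15497888-15498744, had 7264, 1063, 1499.97, 3526 and 579 FPKM (SD 1.44). Alas2, the heme synthesis enzyme of red cell precursors and no globin, followed with 67.4, 11.8, 13.7, 41.6 and 6.70 FPKM. Reads can be split between near-identical globin genes, so the level of each is uncertain, while their order of rats was the same as that of Alas2. Lgals5, a galectin that rat reticulocytes carry, had 36.7, 0.93, 6.76, 12.2 and 1.54 FPKM (SD 1.76). Per the labels, blood was rinsed from the vessels.

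Few listed genes of lymphocytes, mast cells and granulocytes reached 5 FPKM. Of the lymphocyte list 1 of 17 genes in the table, Cd4, did so, and of the mast cell and granulocyte list 0 of 12. Cd52, a surface protein of lymphocytes and other leukocytes, had 30.2, 5.30, 7.96, 24.2 and 1.00 FPKM (SD 1.61), the same order of rats as the alpha globins. A total of 40 genes shared that order, 10 of them with an SD of 0.5 or more. The part of blood in the values of Cd52 and Lgals5 was not tested.

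Transcripts of MHC class II genes were highest in rat 20. Of 8 listed genes 5 were members, while RT1-DMa and RT1-DMb were listed at 0 in every rat and Ciita had a mean of 1.38 FPKM. The surface proteins of MHC class II show peptides to helper T cells, and in tissue they are carried mainly by macrophages and dendritic cells. Their genes share a promoter pattern in mammals that includes an inverted CCAAT box, the Y box, near the start. The promoters of all 5 members are printed for this reason, from RefSeq on build GRCr8, as 300 bases from 250 before the start of the gene, 5′ to 3′ on the gene's own strand. Capitals mark CCAAT or its reverse complement ATTGG.
Cd74 promoter, chr18:56526956-56527255, plus strand: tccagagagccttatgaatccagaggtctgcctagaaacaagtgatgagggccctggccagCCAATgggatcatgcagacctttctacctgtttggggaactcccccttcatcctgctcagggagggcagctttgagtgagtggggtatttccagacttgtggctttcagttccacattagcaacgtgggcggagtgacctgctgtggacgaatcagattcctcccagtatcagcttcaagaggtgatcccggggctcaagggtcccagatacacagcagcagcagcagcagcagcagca
RT1-Ba promoter, chr20:4576807-4577106, plus strand: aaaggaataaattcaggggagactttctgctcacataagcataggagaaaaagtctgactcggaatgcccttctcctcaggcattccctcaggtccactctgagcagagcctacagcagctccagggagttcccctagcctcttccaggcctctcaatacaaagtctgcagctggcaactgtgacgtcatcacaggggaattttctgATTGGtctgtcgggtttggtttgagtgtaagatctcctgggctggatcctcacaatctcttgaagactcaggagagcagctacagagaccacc
RT1-Bb promoter, chr20:4604069-4604368, minus strand: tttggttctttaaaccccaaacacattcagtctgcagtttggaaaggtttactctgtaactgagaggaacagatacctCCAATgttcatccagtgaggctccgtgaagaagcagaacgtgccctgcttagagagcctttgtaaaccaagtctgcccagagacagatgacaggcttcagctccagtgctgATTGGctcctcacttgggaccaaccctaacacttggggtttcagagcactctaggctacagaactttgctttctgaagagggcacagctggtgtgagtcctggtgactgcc
RT1-Da promoter, chr20:4515165-4515464, plus strand: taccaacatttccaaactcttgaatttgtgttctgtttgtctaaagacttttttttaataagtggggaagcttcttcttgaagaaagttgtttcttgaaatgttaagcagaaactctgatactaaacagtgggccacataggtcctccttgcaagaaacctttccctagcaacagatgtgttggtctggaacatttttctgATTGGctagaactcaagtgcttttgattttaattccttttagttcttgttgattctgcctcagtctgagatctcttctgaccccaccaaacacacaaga
RT1-Db1 promoter, chr20:4560113-4560412, minus strand: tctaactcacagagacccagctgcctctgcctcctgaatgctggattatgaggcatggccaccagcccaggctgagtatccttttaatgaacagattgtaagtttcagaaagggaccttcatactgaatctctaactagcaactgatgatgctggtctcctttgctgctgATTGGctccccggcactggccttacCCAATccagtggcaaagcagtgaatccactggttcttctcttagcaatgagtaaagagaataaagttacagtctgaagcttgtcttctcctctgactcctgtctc
In RT1-Da, RT1-Ba and RT1-Bb an ATTGG began 49, 43 and 61 bases before the start, and in RT1-Db1 an ATTGG began 80 and a CCAAT 55 bases before it. RT1-Bb held a further CCAAT 172 bases upstream, and Cd74 held a CCAAT 189 bases upstream only. All 5 windows thus held the letters on one strand or the other, as did 37.5% of 33469 windows of the same length for all genes. The 18 contractile genes with a window held CCAAT or ATTGG in 8 cases. The CArG box, a motif bound by serum response factor, was searched as well, only in its strict form CCWWWWWWGG, where W is A or T. This strict form was in 0 of these 18 windows, 0 of the 5 MHC class II windows and 1.64% of all. Near matches, such as ccctatatgg in the Acta2 window, were not counted, so the 0 does not show that contractile promoters lack such boxes. A match of these letters is a description and not a shown binding site, and no match says only that the letters are not in the window.

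Cd74, the invariant chain that escorts class II molecules, had 312, 238, 601, 392 and 247 FPKM (SD 0.55). RT1-Ba and RT1-Bb, which encode an alpha and a beta chain, had 47.2, 35.8, 78.0, 58.9 and 37.1 FPKM and 48.4, 36.8, 75.9, 62.4 and 38.0 FPKM in turn. In all 5 members rat 20 was highest and rat 27 second, and rat 17 or 28 was lowest in 4 of them. The members moved nearly as one, with a ratio of 0.97 against 0.45 for 5 independent genes, and the list mean was 2.13-fold higher in rat 20 than in rat 28.

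Macrophage genes moved with less unity. Of 17 members 12 were highest in rat 20 and 9 lowest in rat 28, with a ratio of 0.62, and their summed FPKM lay between 855 in rat 28 and 1276 in rat 20. Aif1, a macrophage protein also called Iba1, had 25.1, 20.3, 55.7, 41.4 and 28.5 FPKM. Cd163, a scavenger receptor of tissue macrophages, had 7.91, 23.6, 16.3, 23.3 and 8.56 FPKM (SD 0.71), with rats 17 and 27 highest. Cd68, of macrophage lysosomes, went against the list with 25.7, 29.3, 39.2, 40.6 and 46.4 FPKM, highest in rat 28.

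Chemokines and other inflammatory signals were lowest in rat 17 in 9 of 15 members, and 11 of the 15 had an SD of 0.5 or more. Ccl2, which draws monocytes, had 33.9, 8.81, 27.7, 14.0 and 46.7 FPKM (SD 0.93). Vcam1, an adhesion receptor for leukocytes, was at 329, 104, 333, 272 and 426 FPKM, with rat 17 lowest in both. Ccl21, a chemokine of lymphatic endothelium, had 14.4, 4.34, 28.5, 27.3 and 2.24 FPKM (SD 1.44) and was lowest in rat 28. Interferon response genes were highest in rat 9 (7 of 13) or rat 20 (6 of 13) and lowest in rat 17 in 8; scaled to the same total FPKM, the list mean was highest in rat 20 instead of rat 9. Isg15, a ubiquitin-like protein induced by interferon, had 19.9, 6.71, 11.8, 7.59 and 9.29 FPKM.

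Endothelial genes were highest in rat 27 in 11 of 13 members and lowest in rat 28 in 10, with a list mean 1.82-fold higher in rat 27 than in rat 28, a range of 0.87 on the log2 scale that was 0.53 without rat 27. Pecam1, an adhesion protein of all endothelium, had 94.8, 135, 112, 142 and 69.7 FPKM. Vwf, the gene of von Willebrand factor, had 10.3, 14.0, 23.0, 26.5 and 7.30 FPKM (SD 0.73). Complement genes were highest in rat 20 in 8 of 13 members, but C4b, a central complement component, was highest in rat 27 with 10.2, 24.4, 25.4, 64.1 and 12.3 FPKM (SD 1.00). Scaled to the same total, the complement list mean was highest in rat 27.

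Rat 17 had high levels of several genes that glucocorticoids induce. Of 15 members of that list 8 were highest in rat 17, while the list as a whole did not move closely together (ratio 0.36, against 0.26 for independent genes) and its mean was highest in rat 27 under both other scalings that were tried for lists. Zbtb16, a zinc finger repressor, had 44.1, 118, 50.9, 50.8 and 61.0 FPKM (SD 0.56). Fkbp5, a chaperone that damps the receptor, had 27.0, 71.0, 27.3, 66.2 and 37.3 FPKM, high in both rats 17 and 27. Serpina3n, an acute phase protease inhibitor outside that list, had 68.1, 213, 52.0, 64.2 and 71.1 FPKM (SD 0.79), 3.00 times as high in rat 17 as in the next rat. Mt2A, a metallothionein, had 55.6, 82.4, 29.0, 41.9 and 18.9 FPKM, and 5 of 9 acute phase members were highest in rat 17, though scaled to the same total FPKM that list's mean was highest in rat 27.

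Immediate early genes, which answer stimuli within minutes, were lowest in rat 17 in 11 of 22 members. Fos, part of the AP-1 factor, had 229.5, 69.5, 312, 240.1 and 224 FPKM (SD 0.84), and Egr1, a zinc finger factor, 571, 312, 730.2, 514 and 681 FPKM. Fosl2, a relative of Fos, was the opposite, highest in rat 17 with 23.0, 63.5, 32.1, 24.2 and 22.3 FPKM. Heat shock genes were highest in rat 28 in 8 of 14 members. Hspa1b, an inducible Hsp70, had 11.8, 7.04, 10.3, 8.99 and 28.2 FPKM (SD 0.71), 2.38 times as high in rat 28 as in the next rat, and Hsph1, its cochaperone, 56.7, 56.1, 72.3, 46.8 and 105 FPKM.

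**Figure D5:**
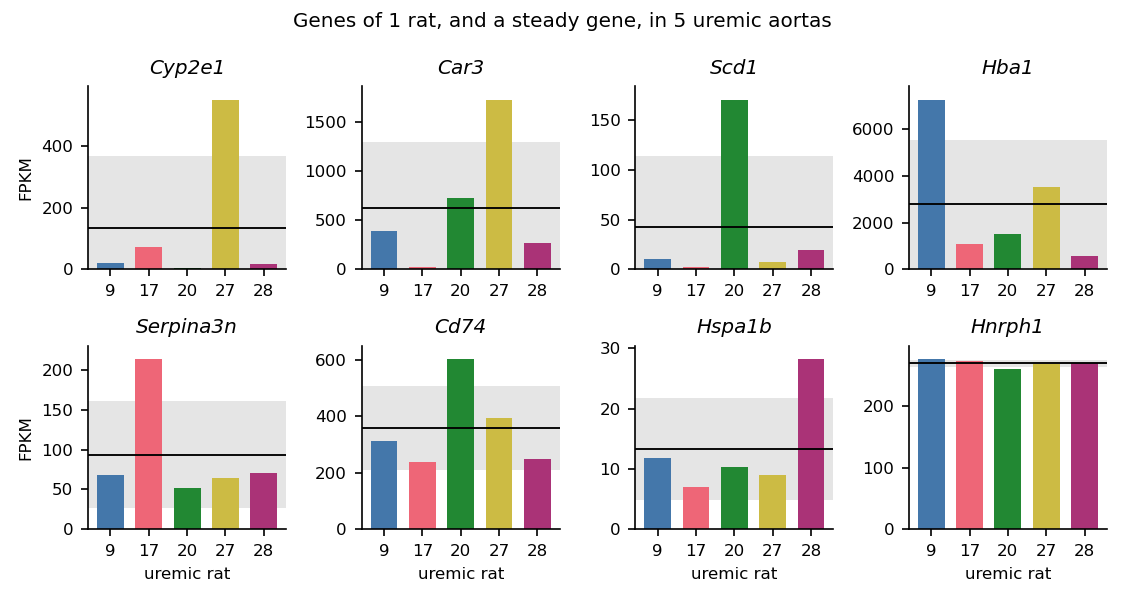
Bars give FPKM of 8 genes in uremic rats 9, 17, 20, 27 and 28, each on its own linear axis from 0; the line is the mean and the grey band 1 SD on either side, cut at 0 (n = 5). Cyp2e1 and Car3 are highest in rat 27, Scd1 and Cd74 in rat 20, Hba1 in rat 9, Serpina3n in rat 17 and Hspa1b in rat 28, while Hnrph1 is level.

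Genes of the unfolded protein response, which help proteins fold in the endoplasmic reticulum, were highest in rat 20 in 7 of 14 members together with those of amino acid stress. Hspa5, the main chaperone of that compartment, had 485, 354, 662, 308 and 493 FPKM, and Sdf2l1, a further chaperone there, 15.5, 11.4, 31.9, 9.34 and 19.1 FPKM. Asns, asparagine synthetase, was instead highest in rat 27, with 2.73, 2.01, 6.65, 20.7 and 4.52 FPKM (SD 1.12), while Atf4, the factor that induces it, was level at 353, 374, 311, 318 and 323 FPKM.

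Outside the lists, further genes set 1 rat off from the next. In rat 9, Nrgn, a calmodulin-binding protein, had 119.99, 35.9, 54.0, 14.5 and 29.1 FPKM (SD 1.10). Bmpr1b, a receptor for bone morphogenetic proteins, had 7.09, 20.5, 5.23, 7.71 and 8.03 FPKM, and Tmeff2, a membrane protein with follistatin domains, 12.5, 32.2, 12.8, 12.3 and 12.8 FPKM. In both, rat 17 was over 2 times as high as any other rat and the other 4 were alike. Adhfe1, an alcohol dehydrogenase, had 5.14, 6.32, 6.16, 42.9 and 6.06 FPKM with rat 27 high, and Rab26, a GTPase of secretion, had 7.32, 6.53, 6.21, 2.20 and 6.86 FPKM with rat 27 low. Kcnk2, a stretch-sensitive potassium channel, had 12.7, 9.86, 8.10, 8.70 and 22.7 FPKM with rat 28 highest.

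Some clock genes varied, while the 12 members of their list had a ratio of 0.27, against 0.29 for independent genes. Of these members 4 were highest and 5 lowest in rat 27, and opposite movements cancel in this ratio. Nr1d1, a repressor that cycles daily, had 33.3, 25.8, 16.9, 76.96 and 57.2 FPKM (SD 0.85), and Dbp, a factor with a similar cycle, 24.9, 11.7, 17.1, 59.5 and 28.9 FPKM (SD 0.85), both highest in rat 27. Per2, another clock repressor, had 30.3, 33.0, 32.9, 30.1 and 33.5 FPKM (SD 0.072). The hours at which the rats were killed were not among the data used here. The 14 hypoxia and glycolysis genes had a ratio of 0.18, below the 0.27 of independent genes.

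The lists of ribosomal protein and proteasome genes were steady. Of 18 ribosomal protein genes 0, and of 19 proteasome genes 0, had an SD of 0.5 or more, against 8.67% of all genes. The median SDs of these lists were 0.14 and 0.16. Not every such gene was steady, as Rpl37a, a ribosomal protein gene outside the list, had an SD above that bound. Rplp0, of the large ribosomal subunit, had 448, 407, 341, 392 and 396 FPKM, and Psmc1, a proteasome ATPase, 95.8, 87.2, 99.1, 96.0 and 102 FPKM (SD 0.083). Ribosomal protein genes have near-identical copies, so their reads may be split, and Rpl8, Rplp2, Rps6 and Rps19 were listed at 0 in every rat. The smallest SD among genes of 50 FPKM or more was that of Hnrph1, an RNA-binding splicing factor, with 276, 273, 261, 268 and 269 FPKM (SD 0.03). Tra2a, another splicing factor, had 106, 103, 101, 105 and 101 FPKM, and Epn1, of endocytosis, 63.1, 61.3, 60.5, 59.3 and 60.2 FPKM. For these 3 genes the SD was no larger than that from counting reads.

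Genes of adrenal gland, kidney and mesothelium, which lie near the aorta, had low values. In the table stood 15 adrenal and kidney genes and 11 mesothelial and epithelial genes; 0 of each reached 5 FPKM, and their summed FPKM was at most 1.91 and 5.69 in any rat. Of these genes 8 and 5 were listed at 0 in every rat, which may be a failed estimate, as for the ribosomal genes above, so the values do not show absence. Of 21 genes of the heart and skeletal muscle sarcomere 2 were members, Acta1 and Tnnt3, and Nppa and Nppb were listed at 0 in all 5 rats. Acta1, skeletal actin, had 45.9, 72.3, 20.2, 27.7 and 23.6 FPKM with rat 17 highest and rat 20 lowest. Tnnt3 differed, with rat 20 highest and rat 9 lowest. Among nerve genes, S100b of Schwann cells had 20.3, 9.54, 40.5, 26.2 and 17.3 FPKM (SD 0.73), highest in rat 20.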

How the data were processed

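Total RNA of snap-frozen aortas was enriched for polyadenylated RNA and sequenced, per the labels' protocols. For the authors' processing, the submitters' processing notes list rat genome build rn5 and the tools cutadapt 1.3, TopHat2 2.0.10, Cuffdiff and Cufflinks 2.1.1; settings are not given in the sources used here. The deposited table has 17019 genes and 1 column per library. No unit stands in its header, and FPKM, the unit that Cufflinks writes, was taken as the unit of the deposited values. The deposited mean of the uremic group matched the mean of the 5 columns used. The label of rat 27 gives 2 index sequences and the words technical replicate; its 1 column was used as deposited.

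Only the 5 uremic columns entered the results, so no groups were compared and no p-values were computed. Genes with a mean of 5 FPKM or more were kept, and SDs were taken on log2(FPKM + 1). A rat was called apart when the gap at one end of the 5 values was over 0.71 of their range (Dixon, 95%). Whole reads were recovered from the steps between low values, using all libraries of the table only to find the steps: 10928 of 11294 genes (96.8%) above 0 in at least 8 libraries were whole to within 0.1 read, against 0 of 1000 genes with shuffled libraries. Reads from PCR are not independent molecules, so the counting SD covers counting error only. The depth of 98 to 292 reads for the median gene limits the precision of single values. In 283 of the 7209 genes no reads were recovered, among them Mgp, Tagln, Acta2, Fn1, Myh11, Col1a1, Col3a1 and Eln.

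The genes named are the 5 markers, the 20 with the largest SD, the 10 with the smallest among those with a mean of 50 or more, 4 genes per rat and end by the ratio to the next rat, up to 6 abundant members of each list, and the 3 genes nearest to a marker with an SD of at least 0.3. Further list members are named for their roles, after their values were seen, and some genes that the rule names are not reported here. Members, markers and lists were chosen with earlier results of these data known. A total of 15 members whose names a spreadsheet had turned into dates were counted, not named, and rows named for microRNA precursors were left out of the text. CCAAT and the strict form of the CArG box were searched in 33469 RefSeq promoter windows of build GRCr8, on both strands. Alternatives were other pseudocounts, filters and scalings, leaving out each rat and, chosen after seeing the data, subtracting the counting variance and leaving out rat 27 for the lists. The calculations were tested on simulated data and used Python 3.11.15, numpy 2.4.6, pandas 2.3.3 and matplotlib 3.10.9.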

Additional observations from a re-analysis of the deposited data

Results flagged for a closer look

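Among the 5 values of a gene, a rat was marked where its gap to the nearest other rat was large against the whole range of the 5; chance does this in about 1 gene in 20. This held for 27 of the 103 genes that have values in the text or are among the 20 with the largest SD. Rat 27 was marked on the high side in Cyp2e1 (0.875), LOC291863 (0.739), Adck3 (0.959), Acacb (0.929), Aox1 (0.726), Fam13a (0.847), Dgat2 (0.727), Adhfe1 (0.969), Asns (0.752), C4b (0.719), Etfb (0.717), Fabp4 (0.715), Lpl (0.916), Pdk4 (0.91) and Plin1 (0.754), with the gap as a share of the range in brackets. Rat 20 was marked on the high side in Scd1 (0.897) and Fasn (0.828). Rat 17 was marked on the high side in Bmpr1b (0.816), Fosl2 (0.763), Prg4 (0.74), Serpina3n (0.882), Tmeff2 (0.975) and Zbtb16 (0.773). Rat 28 was marked on the high side in Hspa1b (0.773). Rat 27 was marked on the low side in Igfbp7 (0.792), Kcnmb1 (0.727) and Rab26 (0.783). Many of these genes were named because a single rat was high or low, so their number is no measure of how often it happens. The causes were not tested.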

How the results depend on the processing

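The median SD and the share of the first component stayed within 1.5 times their values under every alternative run, and so did the counts for other pseudocounts and scalings. Filters moved the counts with the number of genes kept. With a mean of 1 FPKM or more, 1096 genes had an SD of 0.5 or more and 117 an SD of 1 or more. With a mean of 20 FPKM or more, 3305 genes remained under the filter, of which 288 had an SD of 0.5 or more, 42 an SD of 1 or more, and 292 a rat apart. With no filter, 12897 genes entered, of which 1258 had an SD of 0.5 or more, 124 an SD of 1 or more, and 1689 a rat apart. Leaving out 1 rat at a time gave 7160 to 7233 genes with a mean of 5 FPKM or more. It gave 400 (without rat 27) to 793 (without rat 28) genes with an SD of 0.5 or more, and 33 to 116 with an SD of 1 or more (without the same rats). The median SD was then 0.20 to 0.25, the genes with a rat apart numbered 430 to 523, and the first component held 50.6% to 62.7%. With the counting variance subtracted, an alternative chosen after seeing the data, 500 genes had an SD of 0.5 or more, 67 an SD of 1 or more, and the median SD was 0.19. Scaling to the same total FPKM moved the median gene by 0.18 in rat 27 and by -0.13 in rat 9 on the log2 scale. Under it, 20 of 30 lists had the same highest rat and 25 the same lowest rat as without scaling, against 28 and 29 under median ratio scaling. For single genes, leaving out 1 rat moved the SD by more than 1.5 times in 54 of 515 cases and the mean by more than 1 SD in 0. Without rat 27 the range of the list mean changed by more than 1.5 times in 13 of 30 lists. No paired analysis was possible because only 1 group was described. The 5 rats, 1 library each, and the reads per gene limit how finely spreads of low genes can be ordered.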
